A study of Mus musculus with 10 samples.

Results

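*Sox10*, *Foxd3*, *Ngfr*, *Fabp7*, *S100b*, *Tyr*, *Dct* and *Mitf*, genes of neural crest cells, of the glia that they form and of melanocytes, were selected by gene symbol from a table comparing heart RNA of *Nos1ap* null and wild-type mouse embryos. They are 8 of the 23195 genes in the table, and the differences between the group means of these libraries were known when they were selected. The study asked what loss of *Nos1ap*, which encodes an adaptor of nitric oxide synthase 1, does to the embryonic heart transcriptome. Stranded polyA RNA-seq was carried out on hearts from 5 wild-type and 5 null embryos, all male and at embryonic day 13.5. The null embryos carried 2 copies of the constitutive tm1d allele, in which exon 4 is deleted, and the wild-type embryos carried none. The allele was derived from a knockout-first allele by crosses with CMV-Cre and ACTB-Flpe mice and is free of the lacZ and neo cassettes, so that the exon is missing in every tissue and not only in heart muscle. The labels give the strain of all embryos as C57BL6/J.

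Neural crest cells leave the dorsal neural tube, and some of them reach the heart, where they contribute to the outflow tract, to parasympathetic ganglia and to the Schwann cell precursors on the nerves. *Sox10* and *Foxd3* encode transcription factors of migrating crest and early glia. *Ngfr* encodes the low-affinity neurotrophin receptor p75, *Fabp7* a fatty acid binding protein of immature glia and *S100b* a calcium-binding protein of later glia. Melanocytes arise from the same lineage, *Mitf* encodes their master regulator, and *Tyr* and *Dct* encode enzymes of melanin synthesis.

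The table gives for each gene the authors' mean normalized count of each group. All 8 genes had group means from which the counts of the single libraries could be recovered. The size factors were inferred from the means, and a mean of 5 whole counts divided by 5 size factors admits few sets of counts. The recovered libraries are numbered 1 to 5 within a genotype by decreasing size factor, and these numbers are not those of the sample labels. The estimated depth was 11328233 to 14023004 read pairs on genes per library. *Nos1ap* itself was at 126 to 161 normalized counts in the wild-type libraries and at 31.1 to 44.4 in the null libraries, so that no library went against its genotype. The cardiomyocyte markers were all present, the lowest of the 10 at a mean of 1668. The libraries differed in 1 respect that bears on every result below. Wild-type library 3 exceeded 3 times the highest of the other 9 in 101 of 10248 protein-coding genes, against 17 for null library 2 and 0 for each of the others.

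By the group means, which served to choose the genes and are therefore given without a test, 5 of the 8 genes were lower in the null hearts and 3 were higher. The mean of *Foxd3* was 3.65 ± 6.55 (SD, n = 5) in wild type and 0.617 ± 0.908 (SD, n = 5) in null, a log2 fold change of -2.56. For *Sox10* the means were 37.7 ± 58.1 and 11.7 ± 3.70 normalized counts (SD, n = 5 each), a log2 fold change of -1.68. For *Fabp7* they were 29.4 ± 43.3 and 12.4 ± 3.18 (SD, n = 5 each), or -1.25 on the log2 scale. In these libraries 1 value set the spread, and the wild-type SD exceeded the wild-type mean in these 3 genes, whereas the null SD was smaller than the null mean for *Sox10* and *Fabp7*. A log2 fold change under -1 was found for 3 of the 8 genes, beside 2.33% of 15504 protein-coding genes with a mean of at least 1. No gene of the 8 had wild-type and null libraries that did not overlap, beside 0.777% of 12480 protein-coding genes with recovered counts.

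**Figure D1:**
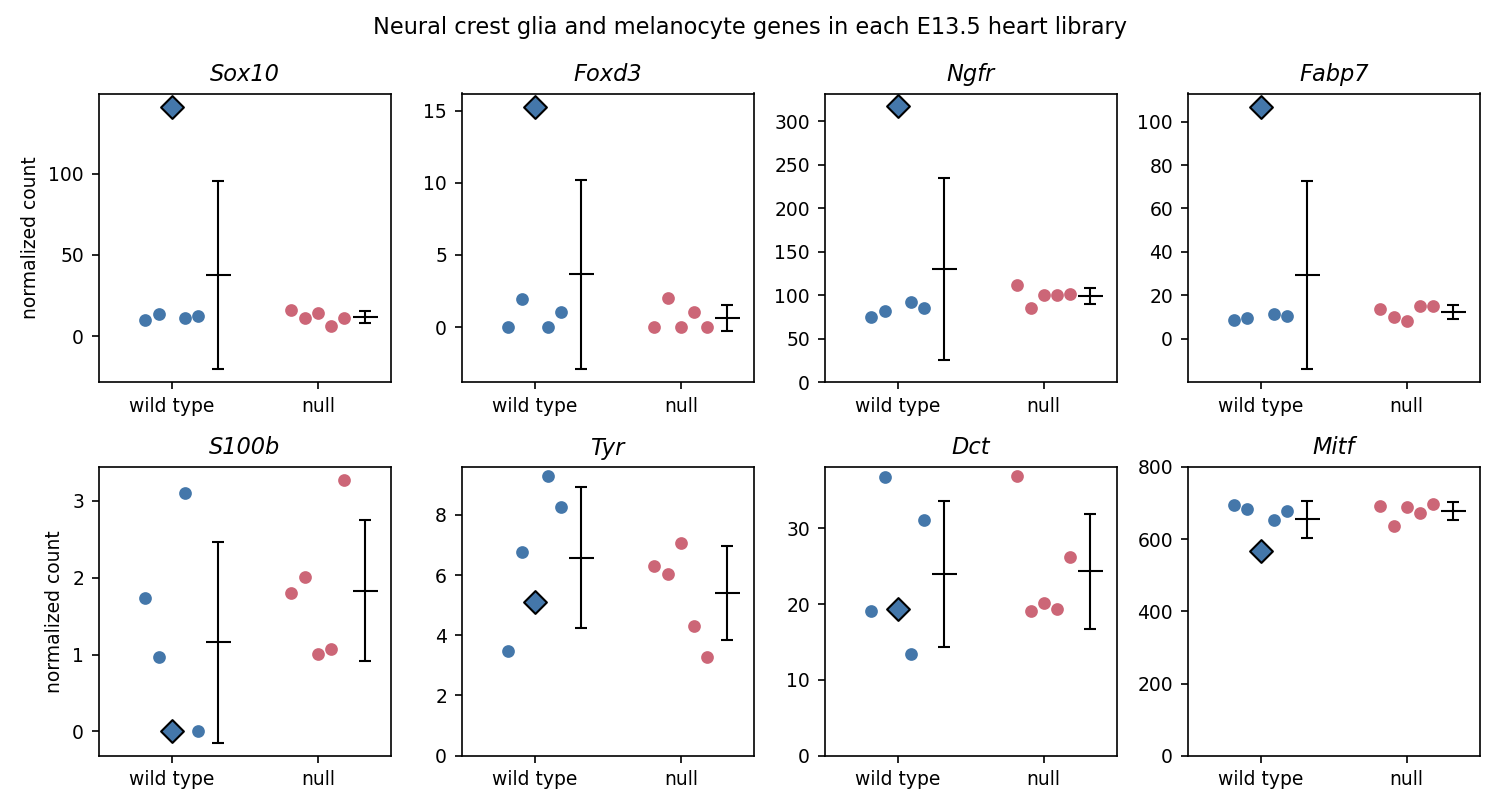
Normalized counts of the 8 genes in 5 wild-type (blue) and 5 null (red) heart libraries, 1 point per library in order of library number, with mean and SD beside each group. The diamond is wild-type library 3, which stands above the other 9 libraries for *Sox10* (141), *Foxd3* (15.3), *Ngfr* (318) and *Fabp7* (107) and not for the other 4 genes. The SD bars reach below 0 where 1 value stands far above the rest.

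Wild-type library 3 alone carried the difference in *Sox10*. The wild-type libraries 1, 2, 4 and 5 held 9.57, 13.6, 11.4 and 12.4 normalized counts, and library 3 held 141. The 5 null libraries held 16.2, 11.1, 14.1, 6.44 and 10.9. Library 3 was thus the only library above 16.2, and the other wild-type libraries lay inside the range of the null libraries. Its value rests on 139 read pairs, 74.3% of the 187 in the wild-type group, and the exact Poisson 95% interval of 119 to 167 normalized counts covers counting error only. It was 12.1 times the mean of the other 9 libraries (11.7 ± 2.82, SD, n = 9). *Sox10* (ENSMUSG00000033006.9) lies at chr15:79154908-79165240 on the minus strand of GRCm38.

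*Foxd3*, which maintains the crest progenitor state, showed the same library apart from the rest, at far fewer reads. Of the wild-type libraries, numbers 1 to 5 held 0, 2, 15, 0 and 1 read pairs, and the null libraries held 0, 2, 0, 1 and 0. The gene was thus at 0 in 5 libraries, where 0 read pairs allow up to 3, or 2.61 to 3.27 normalized counts according to depth. Library 3 stood at 15.3 normalized counts, with a counting interval of 8.55 to 25.2 that lies above these limits. Outside library 3 no library exceeded 2.01, so that in the other 9 a difference between genotypes was not detectable at this depth. *Foxd3* (ENSMUSG00000067261.4) is at chr4:99656299-99658622 on the plus strand of GRCm38.

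*Ngfr* was measured at a higher level than the crest regulators and had the smallest excess of the 4 genes in library 3. The wild-type libraries held 74.8, 82.3, 318, 91.8 and 85.9 normalized counts, and the null libraries held 112, 85.5, 99.8, 99.9 and 101. Library 3 was 3.43 times the mean of the other 9 libraries, with a counting interval of 283 to 355 normalized counts. In the other 4 wild-type libraries the mean was 83.7 ± 7.12 (SD, n = 4), below the null mean of 99.6 ± 9.31 (SD, n = 5). The direction of *Ngfr* therefore turned with this library, from a log2 fold change of -0.39 with it to 0.25 without it. The gene (ENSMUSG00000000120.6) is at chr11:95568818-95587735 on the minus strand.

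*Fabp7*, the lipid-binding protein of immature glia, gave 8.70, 9.68, 107, 11.4 and 10.3 normalized counts in the wild-type libraries. The null libraries gave 13.5, 10.1, 8.07, 15.03 and 15.2. Library 3 was 9.43 times the mean of the other 9, on 105 read pairs. Its counting interval ran from 87.4 to 129 normalized counts, whereas the highest of the other libraries was a null library at 15.2. Without library 3, *Fabp7* had a log2 fold change of 0.31, against -1.25 with it. The gene (ENSMUSG00000019874.11) is at chr10:57784881-57788450 on the plus strand.

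*S100b*, the calcium-binding protein of more mature glia, did not follow the other glial genes. It held 15 read pairs over the 10 libraries. The wild-type libraries held 1.74, 0.968, 0, 3.10 and 0 normalized counts, with library 3 among those at 0, and the null libraries held 1.80, 2.01, 1.01, 1.07 and 3.27. The log2 fold change of 0.66 between the group means of 1.16 ± 1.31 and 1.83 ± 0.915 (SD, n = 5 each) thus rests on 6 and 9 read pairs. A gene with these counts is at the limit of detection in both groups. It lies at chr10:76253853-76261159 (ENSMUSG00000033208.7, plus strand), where its end overlaps *Dip2a* on the opposite strand.

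*Mitf* was the most abundant of the 8 genes and did not share the excess of library 3. The wild-type libraries held 694, 683, 567, 654 and 679 normalized counts and the null libraries 693, 638, 690, 673 and 697. Library 3 was the lowest of the 10 libraries, at 0.836 times the mean of the other 9. The group means were 656 ± 51.6 and 678 ± 24.4 (SD, n = 5 each), a log2 fold change of 0.05. *Mitf* (ENSMUSG00000035158.15, chr6:97807052-98021349, plus strand) is known for transcripts from several promoters, one of them active in heart, and the counts are summed over all of them.

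The melanin enzymes were at low levels in every library, and neither was raised in library 3. *Tyr*, which encodes the rate-limiting enzyme tyrosinase, was at 3.48, 6.78, 5.09, 9.29 and 8.28 normalized counts in the wild-type libraries and at 6.30, 6.03, 7.06, 4.30 and 3.27 in the null libraries. *Dct*, which encodes dopachrome tautomerase, was at 19.1, 36.8, 19.3, 13.4 and 31.04 in wild type and at 36.9, 19.1, 20.2, 19.3 and 26.1 in null. The highest *Dct* values, 36.8 and 36.9, came from 1 library of each genotype. The log2 fold changes of the group means were -0.29 for *Tyr* and 0.02 for *Dct*. Library 3 ranked 7th of the 10 libraries for *Tyr* and 6th for *Dct*. *Tyr* (ENSMUSG00000004651.6) is at chr7:87424771-87493512 and *Dct* (ENSMUSG00000022129.3) at chr14:118012790-118052244, both on the minus strand. By the study's methods, the targeted stem cells and the backcross strain carried functional *Tyr* alleles and only the host blastocysts were albino. The *Tyr* genotype of these embryos is not given in the sources used here.

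The promoters of the melanin enzymes are shown because they share a sequence absent from the 250 bases upstream of the other genes with a RefSeq start. RefSeq (GRCm38.p6) gave starts for 7 of the 8 genes, in 9 windows of 250 bases upstream, none for *Sox10*. The M-box, TCATGTG, is an extended E-box that MITF binds in pigment genes. On either strand it was found in 2 of these windows, those of *Tyr* (chr7:87493513-87493762) and *Dct* (chr14:118052247-118052496), and in 3.25% of all 32851 windows of this length. *Tyr* has it once, at -22 from the start, and *Dct* has it at -151 and, on the opposite strand, at -232. In the sequences, 5′ to 3′ on the gene's strand, capitals mark the M-box, read on the opposite strand as CACATGA.
Tyr: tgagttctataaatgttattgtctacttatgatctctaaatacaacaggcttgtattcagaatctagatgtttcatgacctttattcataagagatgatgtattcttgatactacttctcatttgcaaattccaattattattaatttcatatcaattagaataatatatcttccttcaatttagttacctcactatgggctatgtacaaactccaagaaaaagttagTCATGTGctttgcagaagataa
Dct: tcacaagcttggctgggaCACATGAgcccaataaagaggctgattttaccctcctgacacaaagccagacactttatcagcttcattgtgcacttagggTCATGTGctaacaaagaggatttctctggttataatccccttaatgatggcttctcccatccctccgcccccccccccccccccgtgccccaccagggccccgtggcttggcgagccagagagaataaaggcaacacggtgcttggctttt

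The letters ACAANG, a core that SOX proteins bind, were present on either strand in 5 of the 9 windows and in 36.3% of all windows. *Dct* held them at -192, -167 and -141, and *Fabp7* at -135. The palindromic E-box CACGTG was found in 1 window, that of *Foxd3*, and in 6.02% of all windows. The *Foxd3* window (chr4:99656049-99656298, plus strand) is shown with the E-box in capitals, as the only window of a gene raised in library 3 that holds either E-box. No match of one motif overlapped a match of another in these windows, and a match is a description of letters alone.
Foxd3: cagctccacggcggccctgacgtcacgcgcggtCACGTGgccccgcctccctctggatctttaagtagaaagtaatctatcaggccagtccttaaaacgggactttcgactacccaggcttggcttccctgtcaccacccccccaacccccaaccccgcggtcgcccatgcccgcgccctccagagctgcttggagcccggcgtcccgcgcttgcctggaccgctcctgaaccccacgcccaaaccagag

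For a comparison between genes, the normalized counts were divided by the merged exon length of each gene. In the null libraries the mean level per kb fell in the order *Mitf* (109 normalized counts per kb), *Ngfr* (28.9), *Fabp7* (9.91), *Dct* (4.13), *Sox10* (3.85), *S100b* (1.235), *Tyr* (0.758) and *Foxd3* (0.266). The library ranges of *Dct* (3.24 to 6.26 per kb) and *Sox10* (2.11 to 5.31) overlapped, as did those of *S100b* (0.679 to 2.20) with both *Sox10* and *Tyr* (0.460 to 0.993), and that of *Foxd3* (0 to 0.865) with that of *Tyr*. *Mitf*, *Ngfr* and *Fabp7* were separated from each other and from the rest. In wild-type library 3 the order was different. *Ngfr* (92.2 per kb), *Mitf* (91.5) and *Fabp7* (85.5) had overlapping counting intervals there, *Sox10* followed at 46.4 and *Foxd3* at 6.57. The counting interval of *Foxd3* (3.68 to 10.8 per kb) overlapped that of *Dct* (3.28, 1.98 to 5.12), and *Tyr* (0.716) and *S100b* (0) were lowest.

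Leaving out wild-type library 3 brought the fold changes of the crest and glial genes nearer to 0 or turned their direction. The median log2 fold change of the 8 genes was -0.34 with all libraries and 0.00 without it, beside a median of -0.0049 over the 10248 protein-coding genes tested. *Sox10* moved from -1.68 to 0.00 and *Foxd3* from -2.56 to -0.27. The melanocyte genes moved little, *Tyr* from -0.29 to -0.37, *Dct* from 0.02 to -0.04 and *Mitf* from 0.05 to 0.00. No gene of the 8 remained under -1, and 3 remained lower in null. In bulk RNA of a whole heart, fewer cells of a type and less RNA per cell cannot be told apart.

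**Figure D2:**
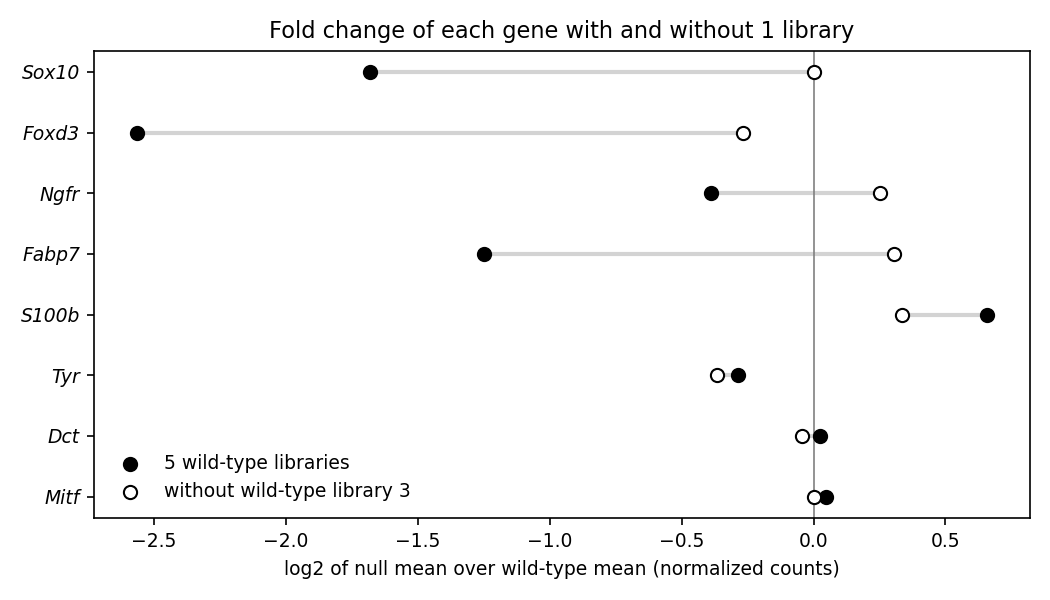
Log2 ratio of the null mean to the wild-type mean for each gene, from all 5 wild-type libraries (filled) and from the 4 without wild-type library 3 (open). *Sox10*, *Foxd3* and *Fabp7* lie under -1 with it and between -0.27 and 0.31 without it, whereas *Tyr*, *Dct* and *Mitf* change by little.

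The correlations among the 4 genes high in library 3 fell when it was left out. Over all 10 libraries, Pearson's r between log2(normalized count + 1) of *Sox10* and *Fabp7* was 0.89, and over the 9 without library 3 it was -0.34. For *Ngfr* and *Fabp7* it was 0.97 and 0.63, and for *Tyr* and *Dct* it was 0.02 and 0.00. These values describe 10 libraries that share their scaling.

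Other genes of Schwann cell precursors and glia were examined as a list of 20 genes. Of the 13 with a mean of at least 10, 12 were lower in null, with a median log2 fold change of -0.13. Over the 12 of them with recovered counts the median was -0.15 with all libraries and -0.04 without wild-type library 3, and the number lower in null was 11 and 8. None was called by limma among the 12 tested (FDR 1% and an absolute log2 fold change over 1), a rule that called 0.0293% of all genes tested. Wild-type library 3 was the highest of the 10 libraries in 10 of 18 recovered genes with a mean of at least 1, beside 17.3% of all such protein-coding genes. *L1cam*, an adhesion molecule of axons and early glia, held 351 normalized counts in library 3 and 11.1 to 21.6 in the other 9. *Ttyh1*, which encodes a membrane protein of neural progenitors, held 81.4 there and 3.87 to 9.67 elsewhere.

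Other abundant genes of the list stood less far apart in library 3 or not at all. The neuregulin receptor gene *Erbb3* held 341 normalized counts there and 215 to 303 in the others. *Moxd1* held 95.7 and 31.2 to 77.6. The level of *Cnp*, a myelin enzyme gene, was 195, inside the range of 176 to 228 of the other libraries. Those of the myelin raft protein gene *Mal* (43.8, others 23.1 to 51.6) and of the Schwann cell ligand gene *Dhh* (43.8, mean of the others 41.6) did not stand out either.

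The neural crest regulators other than *Sox10* and *Foxd3* differed little. Of 10 with a mean of at least 10, 6 were lower in null, the median log2 fold change was -0.03, and none of the 7 tested was called. Over these 7 the median was -0.06 with all libraries and 0.03 without wild-type library 3. Library 3 was the highest library for 4 of 11 recovered genes with a mean of at least 1, beside 17.3% of all such protein-coding genes. The largest fold changes among the abundant genes were those of *Msx1* (-0.22), *Snai2* (-0.16), *Sox9* (-0.09) and *Itga4* (-0.08). *Msx2*, *Sox5*, *Ednrb* and *Zeb2* were at -0.06, 0.04, 0.03 and 0.03. *Snai2*, a repressor of epithelial genes, held 265 normalized counts in library 3 against 145 to 234 elsewhere.

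The melanocyte genes moved little between genotypes and with library 3. Of 6 with a mean of at least 10, 4 were lower in null, with a median log2 fold change of -0.06, and none of the 5 tested was called. Over these 5 the median was -0.10 with all libraries and -0.04 without wild-type library 3. The melanosome matrix gene *Pmel* was at a mean of 22.6 in wild type and 23.0 in null, and at 20.4 in library 3. *Gpnmb*, *Mlph*, *Rab27a*, *Kit* and *Cited1* had log2 fold changes of -0.17, -0.12, -0.10, 0.07 and -0.03. Library 3 was the highest library for 2 of 11 recovered genes with a mean of at least 1, near the 17.3% of all such protein-coding genes. The summed level of 13 genes was 457 there, inside the 437 to 554 of the other libraries. *Kit* (278 in library 3) and *Rab27a* (102) made up most of this sum, so it says little about the other genes of the list. Over these 3 lists together limma called 0 of 24 genes. By limma 1 of them had an unadjusted p under 0.05 (*Moxd1*), beside 3.56% of all genes tested, and with voom it was 0.

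**Figure D3:**
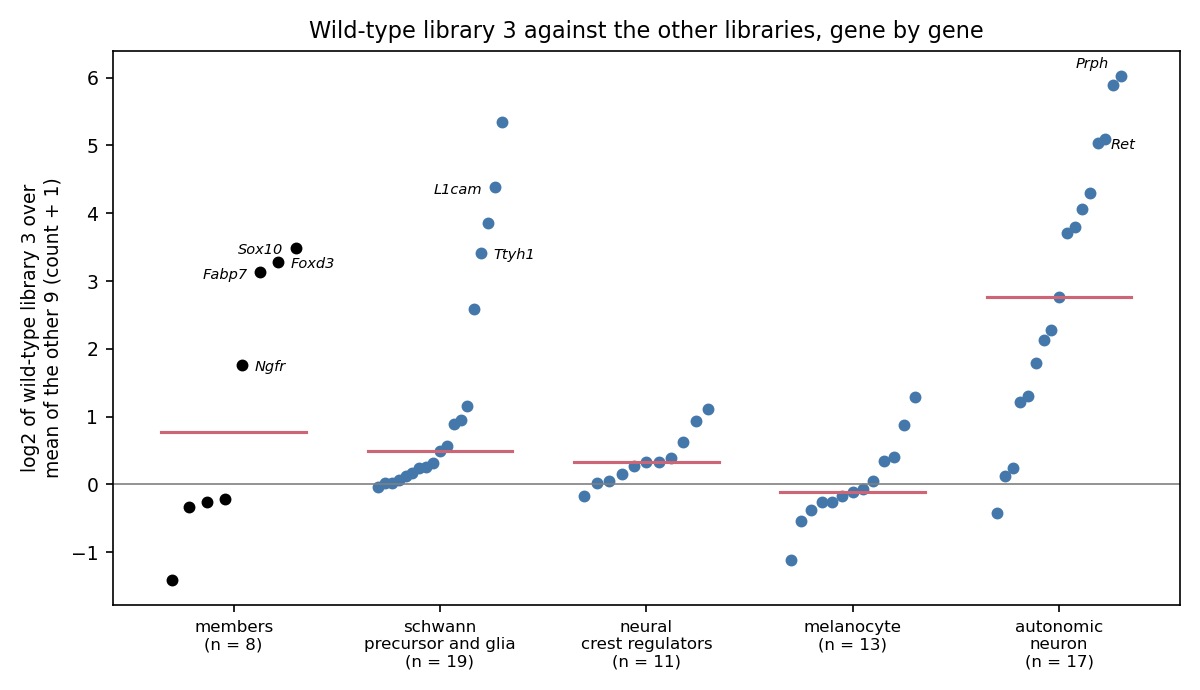
Log2 ratio of wild-type library 3 to the mean of the other 9 libraries, both with 1 added to the normalized count, for each recovered gene of the 8 selected genes and of 4 lists (bars mark medians). The median is 0.77 for the selected genes, 0.49 for the Schwann precursor and glia list, 0.33 for crest regulators, -0.12 for melanocyte genes and 2.77 for autonomic neuron genes.

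Most of the listed markers of autonomic neurons, the partners of these glia in cardiac ganglia, moved with library 3 as well. Library 3 was the highest library for 14 of 16 recovered genes with a mean of at least 1, beside 17.3% of all such protein-coding genes. It exceeded 3 times the next in 11. The summed level of 17 genes was 2752 in library 3, 362 to 380 in the other wild-type libraries and 342 to 403 in the null libraries. *Prph*, a neurofilament gene of peripheral neurons, held 585 normalized counts in library 3 against 3.02 to 12.1, and the receptor gene *Ret* held 280 against 2.06 to 9.90. *Gata3* and *Slc18a2*, named after their values were seen, were not highest in library 3. *Gata3* held 77.4 there against 49.0 to 94.8, and *Slc18a2* held 155 against 117 to 165. *Dbh*, also named after its values were seen, held 11.2 against 1.035 to 8.26. *Nefm* had means of 311 in wild type and 17.9 in null, and its single libraries were not recovered. The median log2 fold change of the list was -1.999 with all libraries and 0.01 without library 3, and limma called 0 of its 10 genes tested.

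Lists of other tissues moved less in their sums. Library 3 stood above every other library for central nervous system genes (406, others 255 to 368), lung epithelium (209, others 123 to 168) and skeletal muscle (772, others 594 to 722). It lay inside the range of the others for epidermis (148, others 112 to 153) and cartilage (563, others 337 to 600), and below it for fetal liver (20.4, others 24.1 to 83.2). *Myh3* of embryonic skeletal muscle, named after its values were seen, was nevertheless high in library 3, at 103 against 0.968 to 4.35. For macrophage genes library 3 held 1424, above the 1223 to 1400 of the others. Endothelial (2 genes, 756, others 681 to 814) and epicardial genes (3 genes, 1009, others 866 to 1115) were inside the range. Of the erythroid list 1 gene was recovered and of the cardiomyocyte list 0, since the means lay above the limit of the search or the counts were not settled. Over all 15 lists limma called 0 of 63 genes, with 3 at an unadjusted p under 0.05 and 2 with voom. The part of any of these cell types in the level of *Sox10*, *Foxd3*, *Ngfr* and *Fabp7* was not tested.

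**Figure D4:**
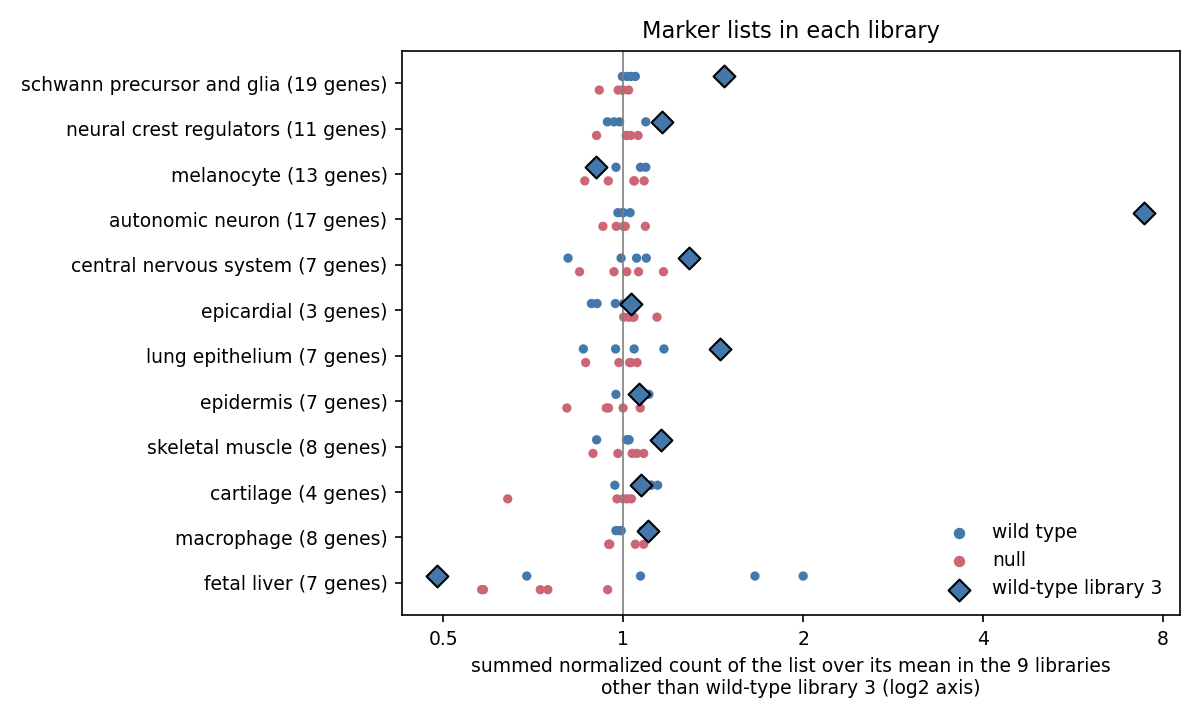
Summed normalized count of each marker list in each library over its mean in the 9 libraries other than wild-type library 3 (log2 axis), for lists with at least 3 recovered genes. Wild-type library 3 (diamond) is at 7.44 for autonomic neuron genes, 1.47 for Schwann precursor and glia, 1.16 for crest regulators and 0.901 for melanocyte genes.

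The protein-coding genes whose pattern over the 10 libraries was most like the mean of the 8 genes were *Scn3b* (r = 0.97), *Mgat5b* (0.96), *Ncald* (0.95), *Mapt* (0.95), *Srcin1* (0.95), *Sncg* (0.95), *Atcay* (0.95), *Elavl4* (0.94), *Map6* (0.94) and *Srrm4* (0.94). Each was highest in wild-type library 3, which the choice by this r largely entails, since the mean of the 8 genes is also highest there. *Mapt*, which encodes the axonal protein tau, held 530 normalized counts there and 7.83 to 18.5 in the other libraries, and *Sncg*, of peripheral neurons, held 205 against 8.26 to 14.1. Over the 9 other libraries r ranged from 0.02 for *Map6* to 0.78 for *Mgat5b*. The values describe these 10 libraries.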

How the data were processed

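Hearts of 5 wild-type and 5 *Nos1ap* null embryos were grouped by the genotype in the sample labels. Per the authors, reads passed Trimmomatic 0.36, RSEM 1.2.31 with the STAR aligner gave stranded gene counts on GENCODE transcripts of GRCm38, and DESeq 1.24.0 was used to compare them. The deposited signal values are group means of counts divided by size factors, which were averaged by the authors over 5 libraries. The deposited fold changes, log2 fold changes, p-values and adjusted p-values are the authors' own comparison and were not used. Counts of single libraries were recovered from the group means.

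Size factors were read from the spacing of the lowest means, and whole counts that give each mean to its last digit were searched in a reduced lattice for means under 1000. Counts were recovered for 98.6% of wild-type and 98.9% of null means under that limit. The search was tested on simulated data, where 5461 of 5863 wild-type means were recovered and 0 of them wrongly. The recovered size factors were within 0.857% of those recomputed from the counts by median ratio. Genes with widely differing libraries were recovered less often (173 of 256 simulated), so that lists lack some of them. Means over libraries include PCR duplicates, and intervals and floors cover counting error only. Labels do not say whether libraries of a group came from separate litters. The p-values set the difference between genotypes against the spread between these libraries.

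For the comparison of genotypes, limma 3.58.1 (R 4.3.3) was run on the 10248 recovered protein-coding genes averaging 10 or more normalized counts, with trended and robust moderation, on log2(normalized count + 1), and called at FDR 1% (Benjamini-Hochberg) and an absolute log2 fold change over 1. In simulated data for this comparison (10248 genes), 84.5% of genes changed by 1 on the log2 scale passed FDR 1%. The fold threshold was not applied in that count, so it does not give the power of the full rule. The 8 genes and the lists were chosen with earlier results of these data known, so the 8 genes got no test between genotypes. Beside them, the text names list genes with a mean of at least 10 by largest absolute log2 fold change (up to 8 in the glia, crest and melanocyte lists and 4 in the autonomic list), the 10 genes most correlated with the mean of the 8 over 10 libraries, and *Nos1ap*. Others are marked as named after their values were seen. A few of the genes so selected were left out of the text. Alternatives changed the pseudocount, the filter, the gene types, the scaling and the model (voom), and left out each library in turn. Merged exon lengths and gene positions came from GENCODE M21 (GRCm38), a later release of the same build than the one used by the authors.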

Additional observations from a re-analysis of the deposited data

Results flagged for a closer look

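In 4 of the 16 groups of 5 libraries examined for the 8 genes, 1 library stood apart by its gap to the nearest of the others divided by the range of the group, with 0.71 as the critical value for 5 samples. Chance gives this in about 5% of independent groups, but the genes were chosen on mean differences that these same values make and the groups share libraries, so the count is a description. All 4 were wild-type groups, and the library was wild-type library 3 in each. The ratio was 0.970 for *Sox10*, 0.873 for *Foxd3*, 0.930 for *Ngfr* and 0.973 for *Fabp7*. For *Mitf*, for which library 3 was the lowest, it was 0.686. What sets this library apart was not tested, and the group means deposited do not show which of the labelled samples it is.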

How the results depend on the processing

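The median log2 fold change of the 8 genes was -0.34. Leaving out each library in turn gave -0.49 to 0.0017, the highest without wild-type library 3. With group medians plus 1 in place of means it was 0.0402. With scaling to a median of 0, a pseudocount of 1 on the means, or only genes with a mean of at least 10 it was -0.34, -0.32 and -0.39. Leaving out 1 library moved single genes by over 1 SD between libraries for *Sox10*, *Foxd3*, *Ngfr* and *Fabp7*, all without wild-type library 3, and for *S100b* (1.44 without wild-type library 4). The lists moved so far for autonomic neuron genes (0.01 without wild-type library 3) and for epidermis (-0.07 without wild-type library 4). By limma, 3 genes were called (*Nos1ap*, *Gm7694* and *Mt2*), and the same 3 under every other model, filter, pseudocount and scaling tried and at FDR 5% without a fold threshold, an alternative added after seeing the data. With 1 library left out, 2 to 3 were called, and the gene lost was *Mt2*. No gene of the fixed lists was called under any alternative run. *S100b*, at 15 read pairs over all libraries, and *Foxd3* are limited by depth. No paired analysis was possible because the deposited group means carry no replicate numbers.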
